A study of Mus musculus with 6 samples.

Results

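Inhibitory transmission by GABA and glycine was followed through 27 genes that encode the receptors, transporters, synthetic enzymes and postsynaptic scaffold of these transmitters. The members are all non-control probes whose gene name in the scanner files is one of the 27, which gave 60 probes of 56605 on the array. Of these, 50 probes for 25 genes were bright enough to test, among 38463 tested probes for 24932 genes. The RNA came from a combined brainstem and cerebellum dissection of mice aged 16 weeks, with 3 samples labelled MSA transgenic and 3 labelled wild type. Both genotypes share one mixed background, given as C57BL/6, 129 and C3H. The labels do not spell out MSA, and they name no transgene, promoter or line, no sex and no source animal per sample, so p-values here measure the spread between these samples. Each sample was hybridised to 1 single-colour (Cy3) array, on which the brightness of a probe reports the abundance of the RNA it binds.

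GABA and glycine are the main fast inhibitory transmitters of the hindbrain. GABA-A receptors and glycine receptors are pentameric chloride channels held at synapses by the scaffold gephyrin, whereas GABA-B receptors are dimers that signal through G proteins. In the cerebellum, Purkinje cells and the interneurons of the cortex release GABA and granule cells receive it, while glycine predominates in the brainstem.

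Levels are given as the log2 of the signal over the 75th percentile of the same array, so that 0 means as bright as that percentile. A level says nothing about one gene against another, because probes bind with different strength. The unscaled 75th percentile lay between 591.9 and 609.2 intensity units on the transgenic and between 405.7 and 562.4 on the wild-type arrays. Wild-type replicate 1 stood apart. It alone was on slide 1, had the dimmest signal, and correlated with the other arrays across genes at 0.974 to 0.978, where the 5 arrays of slide 2 correlated with one another at 0.991 to 0.996. Its part in single results is given as the value without it.

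None of the tested genes of the set passed the test for a difference between the genotypes. In limma (Benjamini-Hochberg over 24932 genes) 0 of the 25 tested members were called at an adjusted p under 0.05, against 0.0441% of all tested genes, and the smallest adjusted p among them was 0.783. At an unadjusted p under 0.05 there was 1 member, Gabrr2, where 5.86% of all genes reached that level. The log2 differences (transgenic minus wild type) ran from -0.27 for Gabra6 to 0.36 for Gabrr2. Their median was -0.02, with 12 members higher and 13 lower, beside a median of 0.00 over all tested genes. The split depends on the scaling: with each array centred on its median, 6 were higher and the median was -0.06. The groups did not overlap for Gabrr2 (transgenic above wild type) and for Gphn and Gabra5 (transgenic below), against 7.4% of all genes above and 7.5% below.

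The precision differed between members. For 16 of the 25, the 95% interval of the difference lay within 0.5 log2 units of 0, that is within 1.41-fold either way, and for 24 it lay within 1 unit. The exception was Gabra4, whose interval reached 1.44. Each of the 25 was well above background on 6 of 6 arrays. With 3 samples a side, an exact 2-sided permutation test of one gene cannot give a p under 0.1.

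**Figure D1:**
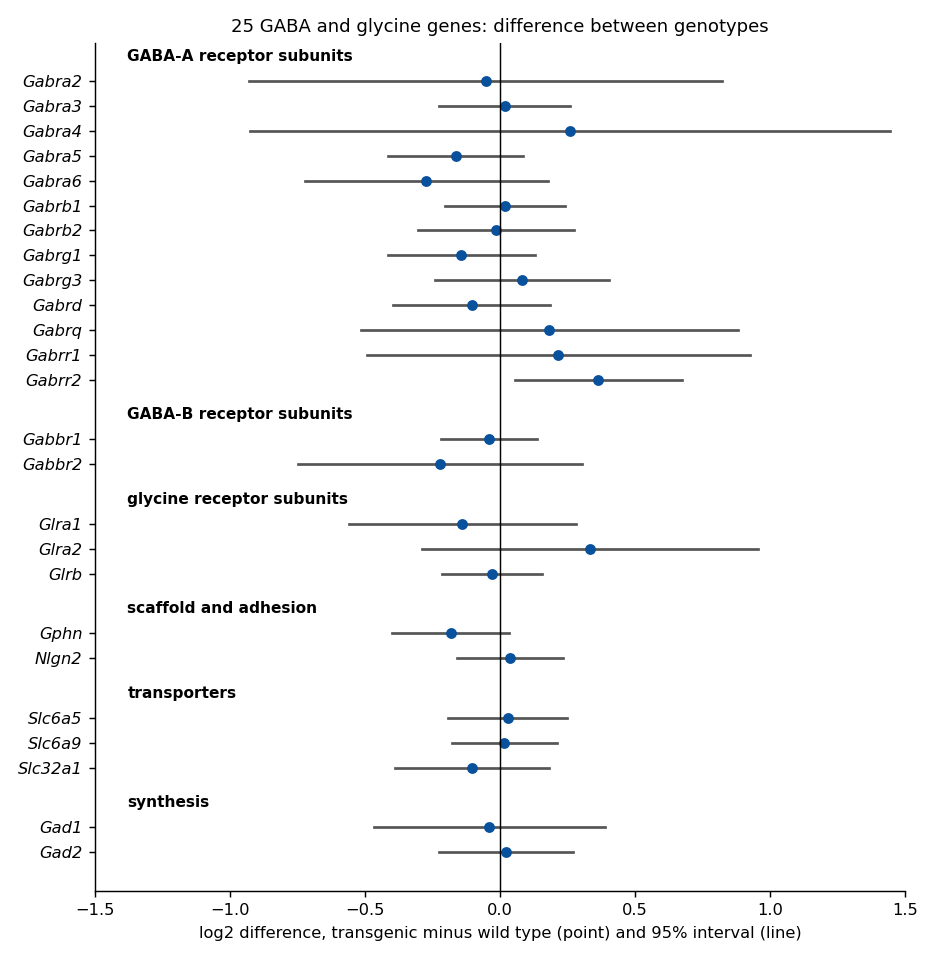
Log2 difference between transgenic and wild-type samples (horizontal axis, points) with its 95% interval from limma (lines) for the 25 tested genes, grouped by role, n = 3 per genotype. The intervals of 24 genes include 0, that of Gabrr2 runs from 0.05 to 0.67, and Gabra4 has the widest.

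Genes of GABA-A subunits lie in clusters, and the members are described cluster by cluster with probe positions in build mm9. On chromosome 11, Gabra6 (42120087 to 42120146) and Gabrb2 lie 224.6 kb apart. Gabra6 encodes an alpha subunit that in the brain is made almost exclusively by cerebellar granule cells. Its level was 4.35, 4.19 and 4.04 in transgenic samples, against 4.83, 4.24 and 4.33 in wild-type samples. The groups overlapped, and the highest value belonged to wild-type replicate 1. The log2 difference was -0.27 ± 0.18 (SE, n = 3 per genotype, limma adjusted p = 0.817) and was -0.09 without that array. Gabrd, on chromosome 4, encodes the delta subunit that pairs with alpha 6 in extrasynaptic receptors of granule cells. It was at 4.34, 4.31 and 4.05 in transgenic samples, against 4.22, 4.33 and 4.46 in wild-type samples. Transgenic replicate 3 was the lowest of the 6 samples for both genes.

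Markers of granule cells had differences of the same sign. The log2 difference was below 0 for 8 of 8, Gabra6 included, with a median of -0.17. Of the 8, 0 were called, against 0.0441% of all tested genes. The mean level of these 8 genes lay between 3.23 and 3.50 in transgenic and between 3.46 and 3.62 in wild-type samples, again lowest in transgenic replicate 3. Without wild-type replicate 1 the median was -0.10, and not all 8 stayed below 0. The sign rested on that array for Slc17a7 (-0.004) and Cbln3 (-0.07). Slc17a7 averaged 0.85 in transgenic samples, against 1.19, 0.64 and 0.73 in the wild-type samples. Cbln3 averaged 0.73 in transgenic samples, against 0.98, 0.70 and 0.74 in the wild-type samples. In a bulk dissection, fewer cells of a type and less RNA per cell cannot be told apart, and the part that granule cell content has in the values of Gabra6 and Gabrd was not tested.

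Gabrb2, which encodes the beta subunit most abundant in adult brain receptors, was at 4.32, 4.17 and 4.27 in transgenic samples, against 4.44, 4.29 and 4.08 in wild-type samples. The values of the genotypes interleaved, and the log2 difference was -0.02, with a 95% interval from -0.31 to 0.27, and 0.07 without wild-type replicate 1. Gabrb2 is one of 4 genes for which a probe of the coding part of the mRNA was picked to set beside a brighter probe. The choice was made after the values were seen, and other members, such as Gabrg1 and Nlgn2, also have dimmer mRNA probes. The sequences of these coding probes are shown, as the strand of the mRNA from 5′ to 3′, because they read a different stretch from the probe used for the gene's value.
Gabrb2 coding probe: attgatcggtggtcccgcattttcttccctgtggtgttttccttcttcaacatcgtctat
Gabbr1 coding probe: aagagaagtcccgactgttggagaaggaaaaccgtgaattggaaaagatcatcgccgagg
Glra1 coding probe: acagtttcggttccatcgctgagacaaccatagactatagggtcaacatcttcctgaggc
Glrb coding probe: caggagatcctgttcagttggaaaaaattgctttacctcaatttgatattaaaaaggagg
They lie in mm9 at 42440313 to 42440372 on chromosome 11 (plus strand) for Gabrb2 and at 37209174 to 37209232 on chromosome 17 (plus strand) for Gabbr1. The Glrb probe lies at 80664125 to 80664184 on chromosome 3 (minus strand). The files place the ends of the Glra1 probe at 55349979 and 55379742 on chromosome 11 (minus strand), a span of 29764 bases for a probe of 60, so it crosses a splice junction. The files give no coding annotation, and that these stretches are coding is background knowledge of the receptors. For Gabrb2 the coding probe gave a log2 difference of -0.01 ± 0.10 (SE, limma over all tested probes), close to that of the brightest probe.

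On chromosome 5, Gabrg1, Gabra2, Gabra4 and Gabrb1 follow one another between 71143181 and 72528145. Gabra2 encodes an alpha subunit of synaptic receptors, found in much of the brain and in brainstem nuclei. It differed widely between samples of the same genotype. Its brightest probe read 1.24, 1.16 and 0.16 in transgenic samples, against 1.11, 1.18 and 0.43 in wild-type samples. Replicate 3 of each genotype was low. These 2 samples carry neighbouring numbers in their titles, and the labels do not say what the numbers stand for. Between genotypes the log2 difference was -0.05 with a 95% interval from -0.93 to 0.82. The spread within genotypes (pooled SD 0.52) ranked at the 89.3 percentile of all tested genes.

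The other 3 Gabra2 probes showed the same low samples. The probe of the annotated mRNA read 1.01, 0.88 and 0.14 in transgenic samples, against 0.57, 1.08 and 0.35 in wild-type samples. Another read 0.44, 0.31 and -0.32 in transgenic samples, against -0.16, 0.29 and -0.34 in wild-type samples, and the last read 0.22, 0.11 and -0.69 in transgenic samples, against -0.51, 0.35 and -0.54 in wild-type samples. On all 4 probes transgenic replicate 3 and wild-type replicate 3 lay below transgenic replicates 1 and 2 and wild-type replicate 2, while wild-type replicate 1 was high on the brightest probe and low or intermediate on the others. The 2 brightest probes are not independent readings, because they share 29 bases of their target (chromosome 5, 71352306 to 71352334, minus strand, mm9).
Gabra2 shared stretch: tcagctcacttcaatcattggaaactacc
The remaining 2 probes bind apart from it, at 71350908 to 71350967 and at 71350022 to 71350081. Gabrb1 and Gabrg1, in the same cluster, did not have replicate 3 of both genotypes as their lowest samples. Gabrb1, which encodes a beta subunit, was at 1.41, 1.34 and 1.54 in transgenic samples, against 1.34, 1.44 and 1.46 in wild-type samples. Gabrg1, whose gamma subunit is found in Bergmann glia and brainstem neurons, was at 1.14, 1.18 and 1.42 in transgenic samples, against 1.35, 1.49 and 1.33 in wild-type samples (log2 difference -0.14 ± 0.11, SE). Its dimmer tested probes gave -0.39 ± 0.20 and -0.72 ± 0.50 (SE, limma adjusted p over all probes = 0.843 for each). With the mean of its tested probes the log2 difference was -0.42, at a limma unadjusted p under 0.05 and an adjusted p of 0.821.

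For Gabra4, an alpha subunit of extrasynaptic receptors best known from forebrain, the direction depended on the probe. The brightest probe, at 72046554 to 72046613 and annotated only to an Ensembl transcript, read 4.49, 4.84 and 5.10 in transgenic samples, against 3.46, 5.17 and 5.03 in wild-type samples. Wild-type replicate 1 was by far the lowest, and the log2 difference of 0.26 became -0.29 without it. The probe of the annotated mRNA, at 71962623 to 71962682, read 1.56, 1.59 and 1.46 in transgenic samples, against 1.91, 1.75 and 1.55 in wild-type samples. There wild-type replicate 1 was the highest and replicate 3 of each genotype was the lowest of its group, as for Gabra2. The log2 difference was -0.20 ± 0.12 (SE, limma adjusted p over all probes = 0.843), or -0.11 without wild-type replicate 1.

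**Figure D2:**
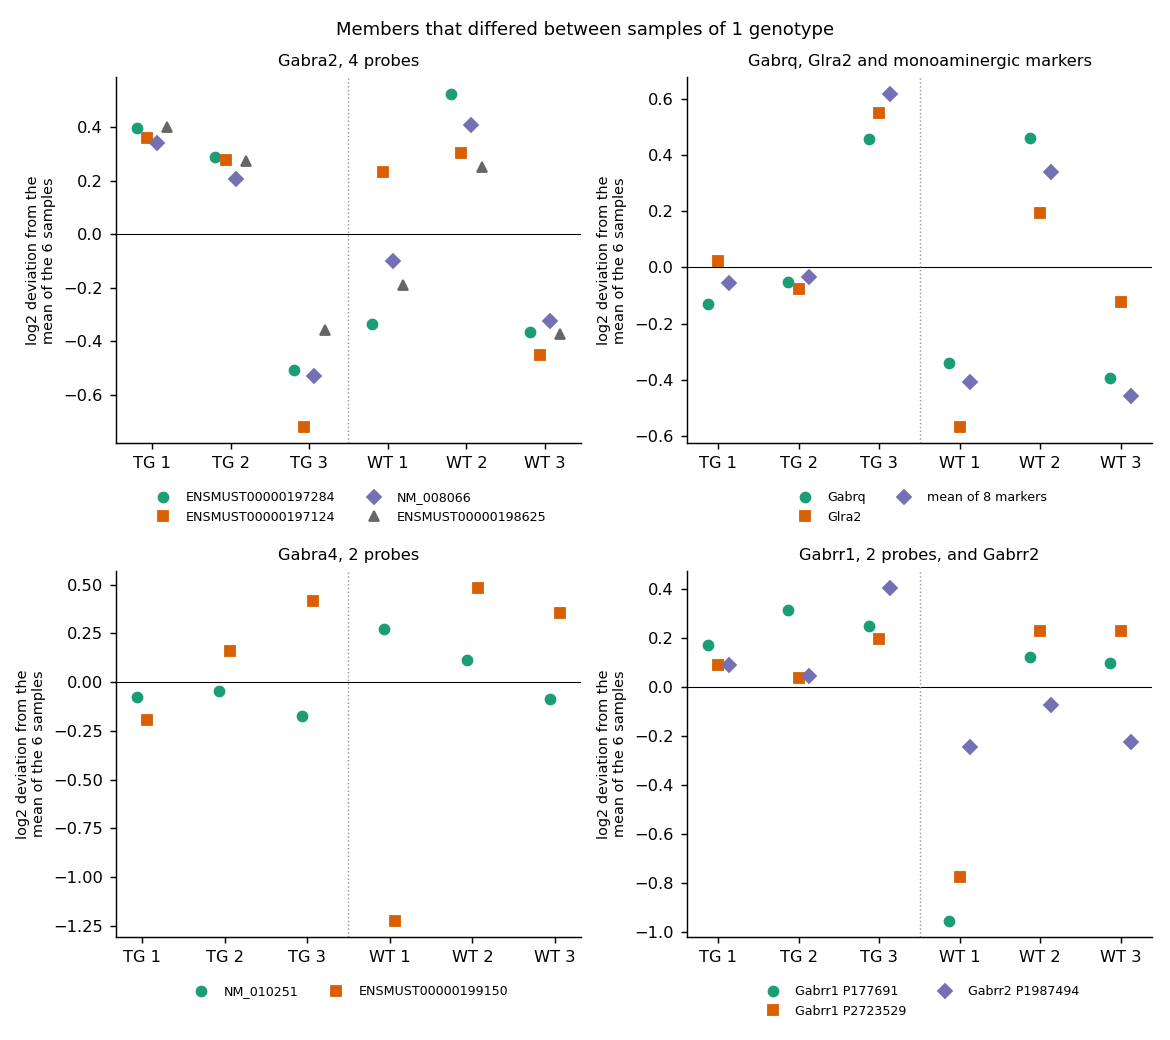
Log2 deviation of each sample from the mean of all 6 (vertical axis) for members with a wide spread within a genotype. Transgenic samples stand left of the dotted line and wild-type samples right of it. The 4 Gabra2 probes are low in replicate 3 of each genotype, Gabrq has its 2 highest and 2 lowest samples in common with the mean of 8 monoaminergic markers, and wild-type replicate 1 alone is low for 1 Gabra4 probe and for both Gabrr1 probes.

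On chromosome 7 lie Gabrg3 and Gabra5. Gabra5, an alpha subunit best known from hippocampus, was at 1.56, 1.78 and 1.76 in transgenic samples, against 1.97, 1.79 and 1.82 in wild-type samples. The groups did not overlap, but the gap between the nearest samples was narrow, and the log2 difference of -0.17 ± 0.10 (SE, limma adjusted p = 0.817) was -0.11 without wild-type replicate 1. The second Gabra5 probe read -0.89, -0.65 and -0.98 in transgenic samples, against -0.73, -0.75 and -0.74 in wild-type samples, where the groups overlapped. Gabrg3, a gamma subunit, was at -1.54, -1.40 and -1.16 in transgenic samples, against -1.39, -1.59 and -1.36 in wild-type samples. The log2 difference was 0.08 ± 0.13 (SE), and its dimmer tested probes gave 0.341 ± 0.305, -0.319 ± 0.271 and 0.063 ± 0.186 (SE).

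The X chromosome holds Gabre, Gabra3 and Gabrq. Gabra3, an alpha subunit of brainstem and monoaminergic neurons, was at 2.84, 2.89 and 3.09 in transgenic samples, against 2.98, 2.90 and 2.88 in wild-type samples, with a 95% interval of the log2 difference from -0.23 to 0.26. Gabre, the epsilon subunit, was not well above background on any array. Gabrq, the theta subunit, which in rodents is concentrated in noradrenergic and serotonergic neurons of the brainstem, was at -1.73, -1.65 and -1.14 in transgenic samples, against -1.94, -1.14 and -1.99 in wild-type samples. Transgenic replicate 3 and wild-type replicate 2 were high and wild-type replicates 1 and 3 low, so the genotypes overlapped. The log2 difference was 0.18 ± 0.28 (SE), or 0.06 without wild-type replicate 1.

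The same samples were high and low for Dbh and Slc6a2, among 8 markers of monoaminergic neurons. The mean level of the 8 was -0.77, -0.75 and -0.10 in transgenic samples, against -1.12, -0.38 and -1.17 in wild-type samples. Among them Dbh, the enzyme that makes noradrenaline, read 1.51, 1.30 and 1.80 in transgenic samples, against -0.06, 1.55 and -0.10 in wild-type samples. Slc6a2, the noradrenaline transporter, read -1.14, -1.72 and -0.99 in transgenic samples, against -3.56, -1.09 and -3.72 in wild-type samples. Both were lowest in wild-type replicates 1 and 3, as was Gabrq. They had the widest spreads of the 8 (pooled SD 0.69 and 1.08), and so moved that mean most. Slc18a2 had the same highest and lowest samples. Th shared the lowest but was higher in transgenic replicate 2 than in wild-type replicate 2, and Ddc was lowest in transgenic replicates 1 and 2. The serotonergic markers Slc6a4 and Tph2 had another order, and Fev differed from both. Slc6a4, the serotonin transporter, read -2.63, -2.06 and -1.03 in transgenic samples, against -1.40, -1.60 and -1.90 in wild-type samples. Tph2, which makes serotonin, read -2.50, -2.35 and -1.05 in transgenic samples, against -2.32, -1.73 and -2.41 in wild-type samples. Transgenic replicate 3 was the highest for Slc6a4 and Tph2, and transgenic replicate 1 the lowest. Fev, another serotonergic marker, read -4.18, -4.16 and -3.92 in transgenic samples, against -4.41, -4.08 and -3.68 in wild-type samples. It was highest in wild-type replicate 3 and lowest in wild-type replicate 1. Of the 8 markers 5 were higher in transgenic samples, and 0 were called, against 0.0441% of all genes. The genotypes overlapped for 8 of 8, where 7.4% of all genes did not overlap with transgenic above and 7.5% with transgenic below. Glra2, described with the glycine receptors, was also highest in transgenic replicate 3 and, among wild-type samples, in replicate 2. The part that the amount of monoaminergic tissue in the dissection has in these values was not tested.

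Gabrr1 and Gabrr2, which encode GABA-A subunits best known from retina, lie 67.7 kb apart on chromosome 4. Gabrr2 (33182776 to 33182835) had the smallest p of the set. It was at -0.63, -0.67 and -0.32 in transgenic samples, against -0.97, -0.79 and -0.95 in wild-type samples. All transgenic values lay above all wild-type values, at 1.29 times the wild-type level, with a log2 difference of 0.36 ± 0.13 (SE, 95% interval 0.05 to 0.67, unadjusted p = 0.0283, limma adjusted p = 0.783). The difference failed the correction over all genes. The difference was 0.33 without wild-type replicate 1 (limma, unadjusted p = 0.0583) and 0.28 with normexp background correction. Of the 4 retina markers tested, 0 were called, against 0.0441% of all genes.

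Gabrr1 was read by 2 probes that overlap by 40 bases and differ at 2 of them. A stretch of 28 bases of the overlap is shown (chromosome 4, 33250513 to 33250540, plus strand, mm9), with the differing bases in capitals.
A_51_P177691 stretch: ctTtccaccacggagcaggtgctttTtt
A_55_P2723529 stretch: ctCtccaccacggagcaggtgctttCtt
Counted from 1 at the 5′ end of the stretch, the differences from the first probe to the second are T3C and T26C. The first probe read -2.25, -2.10 and -2.17 in transgenic samples, against -3.37, -2.29 and -2.32 in wild-type samples. The second, the brighter on average, read -2.27, -2.32 and -2.16 in transgenic samples, against -3.13, -2.13 and -2.13 in wild-type samples. Both were low in wild-type replicate 1. Without that array the log2 difference was 0.13 on the first probe and -0.12 on the second, in place of 0.49 and 0.22.

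GABA-B receptors are built from the products of Gabbr1, which binds GABA, and Gabbr2, which couples to the G protein. Gabbr1 varied least of all members, at 4.52, 4.47 and 4.46 in transgenic samples, against 4.55, 4.51 and 4.52 in wild-type samples. Its log2 difference was -0.04 with a 95% interval from -0.22 to 0.14, and the coding probe printed above gave -0.09 ± 0.12 (SE), or 0.02 without wild-type replicate 1. Gabbr2 was at -0.12, -0.40 and -0.15 in transgenic samples, against 0.45, -0.25 and -0.20 in wild-type samples. Wild-type replicate 1 was the highest, and the log2 difference of -0.22 was 0.00 without it.

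Among glycine receptor genes, Glra1 encodes the adult alpha subunit of brainstem and spinal cord and Glrb the beta subunit that binds gephyrin. Glra1 was at 3.78, 3.72 and 4.003 in transgenic samples, against 4.26, 3.68 and 3.98 in wild-type samples. The genotypes overlapped, with a log2 difference of -0.14 ± 0.17 (SE), or 0.00 without wild-type replicate 1, and the coding probe across the splice junction gave -0.10 ± 0.12, or 0.01 without it. Glrb was at 5.04, 5.12 and 5.11 in transgenic samples, against 5.09, 5.13 and 5.14 in wild-type samples. Its 95% interval ran from -0.21 to 0.15 on the brightest probe, and its coding probe gave -0.16 ± 0.22, or 0.08 without wild-type replicate 1, the highest sample there.

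Glra2, the alpha subunit that predominates before birth, was at -2.01, -2.11 and -1.48 in transgenic samples, against -2.60, -1.84 and -2.15 in wild-type samples. The groups overlapped (log2 difference 0.33 ± 0.25, SE, limma adjusted p = 0.817), and the difference was 0.13 without wild-type replicate 1. For Glra3 the probe of the annotated mRNA was well above background on 2 of 3 transgenic and 0 of 3 wild-type arrays. Its mean level was -5.54 in transgenic and -6.09 in wild-type samples. The groups overlapped, with transgenic replicate 3 at -5.935 and wild-type replicate 3 at -5.687. Setting only the wild-type arrays no lower than the dimmest probe called well above background on each gave 1.1-fold higher in transgenic samples. That is not a lower bound, because the transgenic array not above background kept its own value. The other Glra3 probe, above background on 0 arrays, averaged -7.57 in transgenic and -7.07 in wild-type samples. Neither probe was bright enough to test. With no filter on dim probes the limma adjusted p of the probe of the annotated mRNA was 0.587.

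Of the postsynaptic organisers, Gphn encodes gephyrin, which anchors glycine and GABA-A receptors, and Nlgn2 the adhesion protein neuroligin 2 of inhibitory synapses. Gphn was at 2.61, 2.63 and 2.56 in transgenic samples, against 2.90, 2.75 and 2.70 in wild-type samples. All transgenic values lay below all wild-type values, at 0.881 times the wild-type level, with a log2 difference of -0.18 ± 0.09 (SE, 95% interval -0.40 to 0.03, limma adjusted p = 0.817). It was -0.13 without wild-type replicate 1. The other Gphn probe was the 1 member probe found on the strand opposite to its gene (56 of 60 lay on the same strand, and gene strand was not used here for 3 more). It is not taken as a reading of gephyrin mRNA, and its values of the genotypes overlapped (log2 difference -0.07 ± 0.13, SE, or 0.04 without wild-type replicate 1). Nlgn2 was at 5.23, 5.16 and 5.20 in transgenic samples, against 5.19, 5.08 and 5.21 in wild-type samples, with a 95% interval from -0.16 to 0.23. A dimmer Nlgn2 probe, on which the groups overlapped, gave 0.37 ± 0.20 (SE, limma adjusted p over all probes = 0.843), or 0.21 without wild-type replicate 1.

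All 3 transporter genes had log2 differences near 0 with overlapping groups. Slc32a1 encodes the vesicular transporter that loads GABA and glycine into vesicles. It was at 6.43, 6.26 and 6.31 in transgenic samples, against 6.63, 6.40 and 6.29 in wild-type samples (log2 difference -0.11 ± 0.12, SE, or -0.01 without wild-type replicate 1). Slc6a5, the neuronal glycine transporter that marks glycinergic neurons, was at 1.94, 2.11 and 2.14 in transgenic samples, against 2.02, 2.01 and 2.08 in wild-type samples. Slc6a9, the mainly glial glycine transporter, was at 5.49, 5.53 and 5.60 in transgenic samples, against 5.57, 5.47 and 5.53 in wild-type samples. The 95% interval ran from -0.19 to 0.25 for Slc6a5 and from -0.18 to 0.21 for Slc6a9.

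Gad1 and Gad2 encode the glutamate decarboxylases that make GABA. Gad1 was at 4.18, 4.11 and 4.06 in transgenic samples, against 4.53, 4.02 and 3.91 in wild-type samples. Wild-type replicate 1 was the highest, and the log2 difference of -0.04 was 0.15 without it. Dimmer tested Gad1 probes gave 0.20 ± 0.25 and -0.27 ± 0.25 (SE), with overlapping groups. Gad2 was at 3.29, 3.11 and 3.28 in transgenic samples, against 3.33, 3.11 and 3.17 in wild-type samples (0.02 ± 0.10, SE, or 0.085 without wild-type replicate 1). A further Gad2 probe, annotated to a single cDNA clone at 22480520 to 22480579 on chromosome 2, read -3.79, -3.92 and -3.91 in transgenic samples, against -3.69, -3.71 and -3.57 in wild-type samples. The groups did not overlap there (log2 difference -0.21 ± 0.09, SE, unadjusted p = 0.0566, limma adjusted p over all probes = 0.843).

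**Figure D3:**
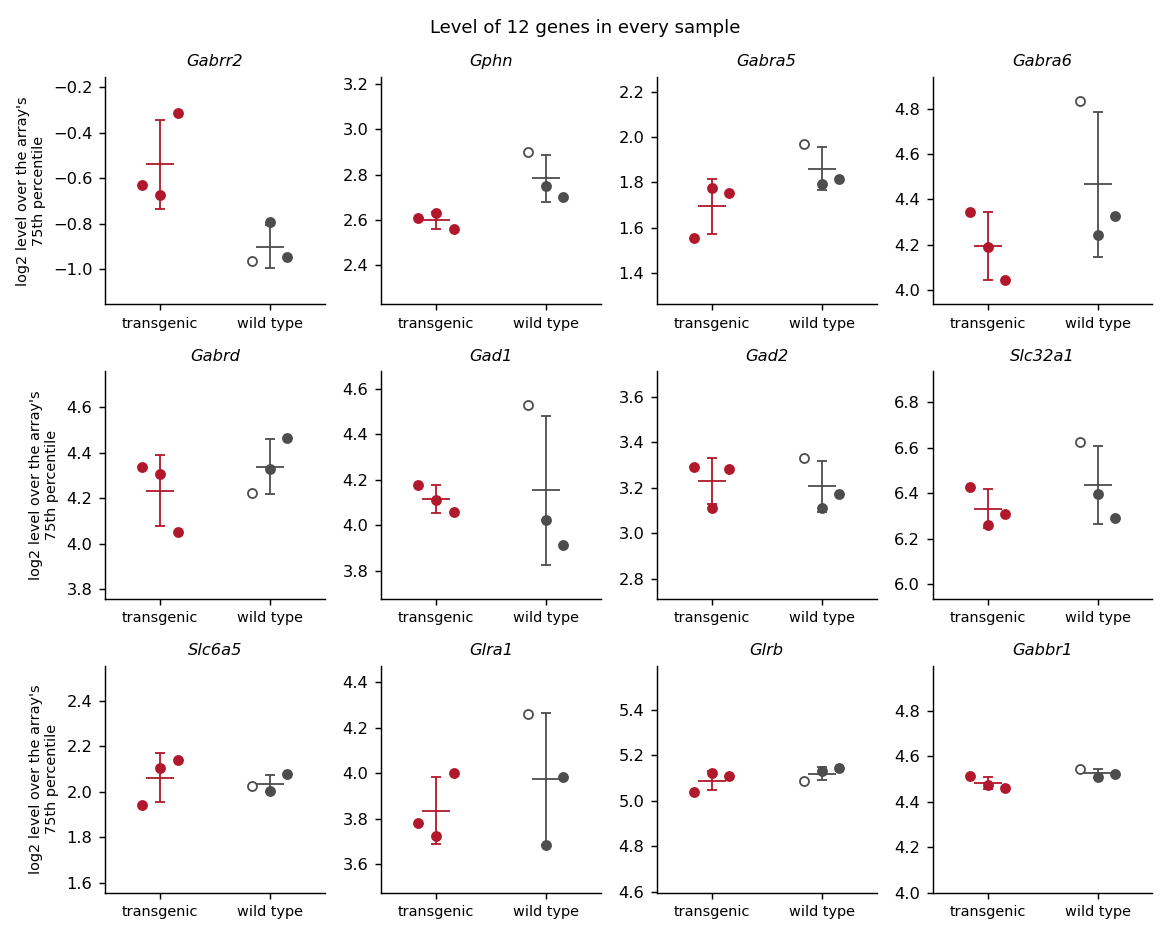
Log2 level over the 75th percentile of the array (vertical axis) for 12 members in each transgenic (red, left) and wild-type sample (grey, right), with the mean and SD, n = 3 per genotype. The open circle is wild-type replicate 1. Axes span at least 1 log2 unit and do not start at 0. The groups do not overlap for Gabrr2, Gphn and Gabra5.

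Taken probe by probe, 0 of the 50 tested member probes were called (limma, Benjamini-Hochberg over 38463 probes), against 0.0286% of all probes, and the smallest adjusted p was 0.843. At an unadjusted p under 0.05 there was 1, the Gabrr2 probe, against 5.58% of all probes. The groups did not overlap for 5 of the 50, with 2 above and 3 below, against 6.68% of all probes above and 7.26% below. Of the 15 members with more than 1 tested probe, 7 had probes with differences of both signs. The lowest and highest differences, -0.72 for a dim Gabrg1 probe and 0.49 for the first Gabrr1 probe, had SEs of 0.50 and 0.30.

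**Figure D4:**
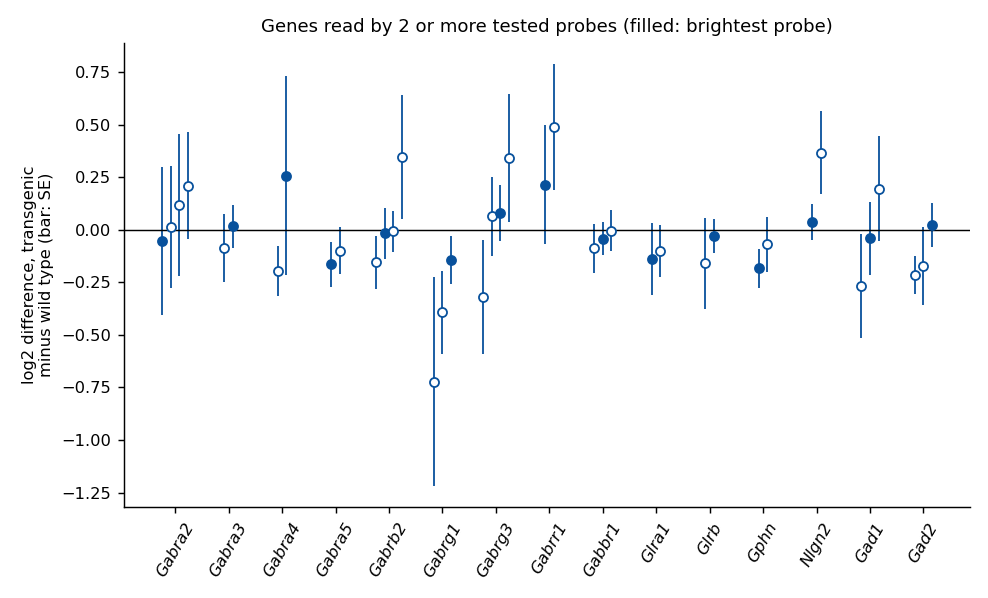
Log2 difference between transgenic and wild-type samples (vertical axis) with its SE for every tested probe of the 15 members that have more than 1, n = 3 per genotype. The filled point is the brightest probe, whose value stands for the gene. Probes of Gabra2, Gabra3, Gabra4, Gabrb2, Gabrg3, Gad1 and Gad2 fall on both sides of 0. The 2 widest SEs, 0.50 and 0.47, belong to a dim Gabrg1 probe and to the brightest Gabra4 probe.

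Other genes of the pathway gave the same count. They were listed for GABA and glycine uptake and breakdown, chloride transport and receptor clustering and trafficking, and 50 of 52 were tested. None was called by limma, against 0.0441% of all genes, and 3 had an unadjusted p under 0.05, against 5.86% of all genes. With 23 higher and 27 lower, the median log2 difference was -0.03. The groups did not overlap for 3 genes with transgenic above and 5 with transgenic below, against 7.4% and 7.5% of all genes. Trak2, an adaptor of mitochondrial transport first described as a partner of GABA-A receptors, had the smallest p. It was at 1.61, 1.64 and 1.70 in transgenic samples, against 1.35, 1.32 and 1.33 in wild-type samples. The groups did not overlap (log2 difference 0.32 ± 0.07, SE, limma adjusted p = 0.469). The log2 difference was -0.30 ± 0.10 for Plcl1, a binding partner of GABA-A receptors, and -0.33 ± 0.13 for Kctd8, an auxiliary subunit of GABA-B receptors (adjusted p = 0.783 and 0.817). It was 0.20 for Slitrk3, -0.18 for Slc38a5, -0.20 for Slc12a2, -0.21 for Slc38a1 and -0.20 for Ajap1, all at an adjusted p of 0.817. The highest difference was 0.42 ± 0.39 for Shmt1 and the lowest that of Kctd8.

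Markers of the cells that carry these genes were also set side by side, with 0 called in each list, against 0.0441% of all genes. For Purkinje cells 6 of 8 markers were lower, with a median log2 difference of -0.13 and a mean level between 5.60 and 5.69 in transgenic and between 5.66 and 5.86 in wild-type samples. For interneurons of the cerebellar cortex 5 of 8 were lower, with a median of -0.08 that was 0.02 without wild-type replicate 1. For brainstem inhibitory neurons 4 of 7 tested markers were higher, with a median of 0.03 that was -0.01 without it, and for astrocytes and Bergmann glia 6 of 8 were lower, with a median of -0.07 (-0.04 without it). Outside these cells, 7 of 8 microglial markers were higher, with a mean level between 1.82 and 1.94 in transgenic and between 1.45 and 1.53 in wild-type samples, and 7 of 8 oligodendrocyte markers were lower. For forebrain neurons 5 of 7 tested markers were higher, with a mean level between -1.92 and -1.69 in transgenic and between -2.48 and -1.98 in wild-type samples. The part of these shifts in the values of the 27 genes was not tested.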

How the data were processed

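The scanner files were deposited with linear intensity values per spot, from which Feature Extraction 10.7.1.1 (protocol GE1_107_Sep09, build mm9, per the file headers) had subtracted the background. The submitters' processing notes name version 9.5.1.1. The authors also deposited a table of intensity values, which equalled a quantile normalization of the probe means within 0.01 log2 for at least 99.986% of probes per array. It served as an alternative. Control spots and spots with an outlier flag (39 to 84 an array) were left out, 0 spots were saturated, and the log2 of each probe's signal was set relative to the 75th percentile of its array. A probe was tested where every array of either genotype had it well above background. The brightest tested probe stood for its gene, in limma 3.58.1 (R 4.3.3, lmFit and eBayes). Gene names came from RefSeq (GRCm38.p6) where they matched, and gene strands from its promoter table. The fit was tested on simulated data. The number of arrays limits the precision. All 27 genes are named whatever their values, with the other pathway genes of the 8 smallest p and the extremes. Members and lists were chosen with earlier results of these data known, and the probes whose sequences are printed were chosen after their values were seen. Protein sequences were not used here.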

Additional observations from a re-analysis of the deposited data

How the results depend on the processing

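The count of members called was 0 under every alternative run: normexp with an offset of 50, quantile and median scaling, no filter and a stricter filter on dim probes, the values the authors deposited, a block for slide or for the leading title digit, the mean of a gene's probes, single probes, an intensity trend, array weights, an adjusted p of 0.1 and leaving out each sample. The smallest adjusted p of a member under any of these was 0.468, for Gabrr2 with array weights. Over all genes the count was 11, and between 0 (without transgenic replicate 2, or with the paired block described last) and 95 (array weights) under these alternatives. With arrays centred on the median, the members' median was -0.06 with 6 of 25 higher, where the median of all genes was -0.045. Probe by probe, 21 of 50 were higher. Leaving out 1 sample gave a median between -0.024 and 0.005, with 6 to 14 members higher, and between -0.04 and -0.009 for the other pathway genes. The 6 came without transgenic replicate 3. The cause was not tested. Gabrr2 kept its direction under all 18 alternatives run for single genes (0.25 to 0.43), as did Gphn (-0.23 to -0.13), Gabra5 (-0.21 to -0.10) and Gabra6 (-0.39 to -0.08). So did Gabrg1, Gabrd, Gabbr1, Glra2, Glrb and Slc32a1. The alternatives use the same arrays, so a kept direction is not a replication. The labels give no replicate numbers shared by the genotypes, but the title numbers fall into 3 neighbouring pairs of 1 transgenic and 1 wild-type sample. With these pairs as a replicate block, an alternative chosen after seeing the data, 0 members were called, 12 were higher and the median was -0.016. Deviations from the group means correlated at 0.17, 0.083 and -0.023 within pairs, and between -0.158 and 0.162 across pairs. These values do not show that the samples are paired, and with 3 samples a genotype they cannot settle it.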
